A study of Homo sapiens with 20 samples.

Results

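The anchor pairs of 10 cytokine and chemokine genes were described in Hi-C loop lists of 4 glioblastoma cell lines. The genes were IL6, LIF, IL11, CXCL1, CXCL2, CXCL3, CXCL8, CCL2, CSF1 and IL1B, and an anchor pair was assigned to a gene when 1 of its anchors lay within 3 kb of a start site of that gene on hg19. By this rule, 221 of 572000 distinct anchor pairs belonged to 7 of the 10 genes. IL1B, CCL2 and IL11 had no pair in any list. No pair belonged to more than 1 of the genes.

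Hi-C measures how often distant stretches of DNA lie close together in the nucleus. H4 and 42MGBA are established human glioblastoma lines that carry naturally occurring truncating STAG2 mutations. H4 88-1 derives from the former and 42MGBA 53-1 from the latter, each after gene editing had corrected the STAG2 mutation. All lines were grown in DMEM with serum and left untreated, and each corrected line is a single derivative, so that a difference between the lines of a pair and the effect of the correction itself cannot be told apart. The Hi-C samples numbered 2 per line and were pooled by the authors into 1 list of the 300000 strongest anchor pairs, with 1 loop strength for each pair of 5 kb anchors.

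Cohesin is a ring-shaped complex that extrudes chromatin into loops, and STAG2 is one of its alternative subunits. Extrusion tends to stop at sites bound by CTCF, most often where the sites at both loop ends point toward each other. Cytokine and chemokine genes encode secreted signals. IL6, LIF and IL11 act through receptors that share the gp130 subunit and activate STAT3, the CXCL chemokines attract neutrophils through CXCR2, CCL2 attracts monocytes, CSF1 sustains macrophages, and IL1B starts NF-kB signalling in the cells that bind it. In glioma, such signals are known for their effects on myeloid cells and on the tumor cells themselves.

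Because replicates were pooled, neither a spread between replicates nor a test of a single pair could be computed, and the read depth behind a strength is not given in the lists. The list of H4 ended at a strength of 4.14 and that of H4 88-1 at 4.44, and those of 42MGBA and 42MGBA 53-1 at 4.49 and 4.28. A pair absent from a list was below that value, not absent from the cells. For each comparison of 2 lines the 100000 strongest pairs of both lists were merged, the strengths of one line were regressed on those of the other, and a pair whose z-score passed 1.96 in either direction was called stronger or weaker. These calls rank pairs within 1 comparison of 2 lists. Neighbouring pairs share anchors and were enhanced together, so that several pairs of one gene are not independent.

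The sequences shown are the CTCF motif cores in the anchors at the summit of the upstream IL6 loop, because they point toward each other, and the NF-kB motifs before the starts of genes with listed loops, because the chemokine genes share them. The IL6 pairs called between 42MGBA and 42MGBA 53-1 reached neighbouring far anchors without a core, and no loop value rests on the NF-kB motifs. They were read from GRCh37, which has the coordinates of hg19. The first of the following lies in an intron of STEAP1B at chr7:22599625-22599653 on the plus strand, in an anchor strongly paired with IL6 in all 4 lines, and the second in an annotated exon of IL6 at chr7:22768241-22768269 on the minus strand, with the core in capitals.
IL6 far anchor CTCF core: acctctttaCCAGCAGAGGGcaagtccac
IL6 near anchor CTCF core: aaacaaacaCCACTAGAGGGccttttcat
The cores pointed toward each other across 169 kb. The core was present in 8.71% of the 128561 anchors in the lists, in 2 of the 17 anchors at the genes and in 9 of their 97 far anchors. At IL6, it was present in 1 of 3 anchors at the gene and in 1 of 43 far anchors, and these are the pair printed here.

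Each of the next sequences lies just before the start of a gene and holds a match to GGANNTTCC, a form of the motif bound by NF-kB, in capitals on the strand of the gene. The window of CXCL1 lies at chr4:74735022-74735050, that of CXCL2 at chr4:74964971-74964999, that of CXCL3 at chr4:74904466-74904494, that of CXCL8 at chr4:74606185-74606213 and that of IL6 at chr7:22766737-22766765.
CXCL1: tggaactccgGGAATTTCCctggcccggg
CXCL2: tggagctccgGGAATTTCCctggcccggg
CXCL3: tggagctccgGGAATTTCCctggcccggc
CXCL8: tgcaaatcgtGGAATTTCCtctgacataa
IL6: atcaaatgtgGGATTTTCCcatgagtctc
Both strands were searched over the 250 bases before each start. The motif was found at 6 of the 10 genes, the sixth being CCL2, and in 3.69% of 19799 such windows of protein-coding genes. The windows of CXCL1, CXCL2 and CXCL3 were nearly alike, with 28 of 29 bases identical between CXCL1 and CXCL2, 28 of 29 between CXCL2 and CXCL3, and 27 of 29 between CXCL1 and CXCL3. CXCL8 and IL6 shared 16 of 29 bases. TGANTCA, the motif bound by AP-1, was found at CXCL8 and IL11 and in 4.70% of all windows. The match at CXCL8, at chr4:74606139-74606165 on the plus strand, did not overlap its NF-kB match.
CXCL8 AP-1: ggaagtgtgaTGACTCAggtttgccct

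The genes differed widely in how much looping they showed. IL6 had 98 pairs, CXCL8 had 50, LIF had 39, CXCL2 and CSF1 had 12 each, CXCL3 had 8 and CXCL1 had 2. Of all 221 pairs, 103 were listed in H4 and 95 in H4 88-1, and 96 in 42MGBA and 172 in 42MGBA 53-1. Counted only at or above 4.49, the highest of the 4 lowest strengths, a setting chosen after seeing the data, the numbers were 80, 92, 96 and 155. Between 33.9% and 37.2% of 20149 protein-coding genes had a pair in a list, with a median of 12 pairs among those that had any. IL6 had more pairs than 86.5 to 94.0% of such genes, depending on the line, and LIF more than 65.8 to 77.3%. CXCL8 moved from more than 24.3% in H4 88-1 and 41.0% in 42MGBA to more than 84.0% in 42MGBA 53-1.

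**Figure D1:**
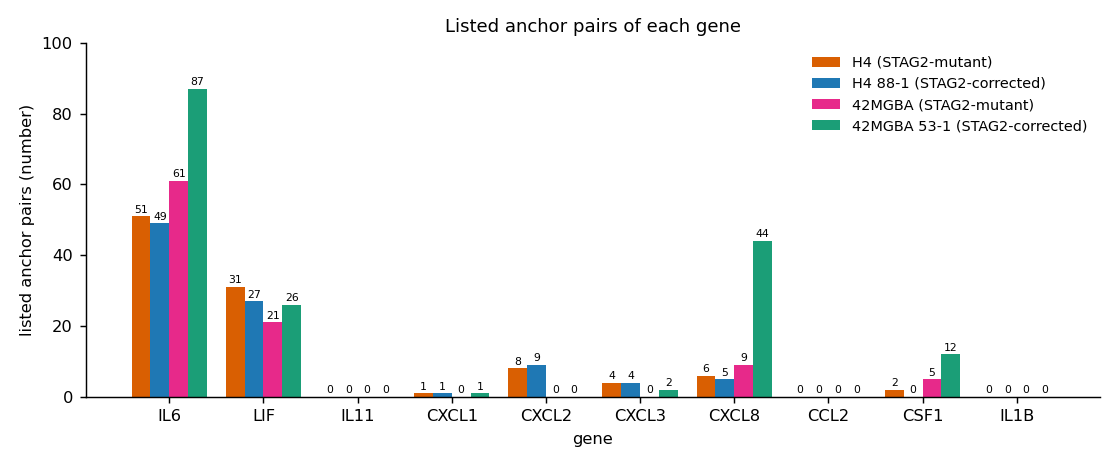
Number of listed anchor pairs (vertical axis) of each gene (horizontal axis) in the 4 lines, with the count above each bar. IL6 had the most pairs in every line, CXCL8 had 9 in 42MGBA and 44 in 42MGBA 53-1, and IL11, CCL2 and IL1B stood at 0.

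To compare the corrected with the mutant line of each pair, the merged pairs were counted first. Comparing H4 88-1 with H4, none of the 51 merged pairs of these genes was stronger and none was weaker, whereas 1.94% of all 129476 merged pairs were stronger and 2.17% weaker. The z-scores of the 51 ran from -1.14 to 1.22, and 26 of them were positive. Comparing 42MGBA 53-1 with 42MGBA, 11 of 67 merged pairs were stronger and 1 was weaker, whereas 1.61% of all 131211 merged pairs were stronger and 2.45% weaker. All 11 stronger pairs belonged to IL6 and the weaker pair to LIF. The count of 11 rested on neighbouring pairs of 1 locus. Over all the genes, the count was 7 with the log2 ratio in place of the regression and 7 with z-scores taken within each chromosome. It was 26 with all 300000 pairs of both lists merged. These alternative counts were not split by gene. No pair passed the cutoff in both isogenic pairs.

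**Figure D2:**
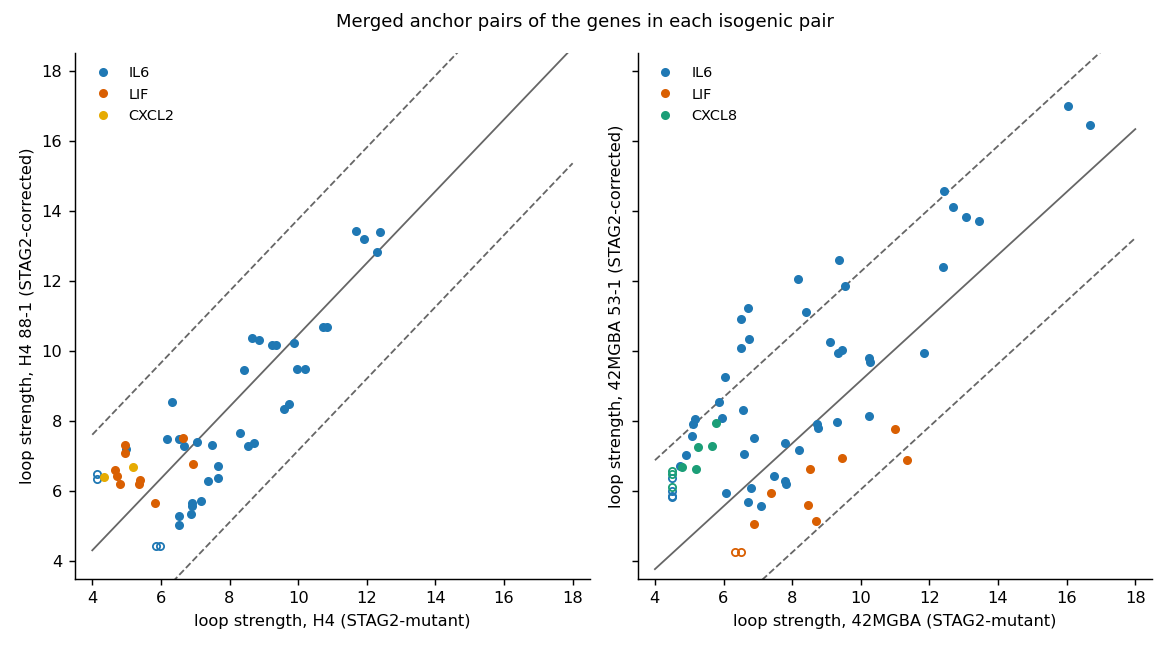
Loop strength in the STAG2-corrected line (vertical axis) against the STAG2-mutant line (horizontal axis) for the merged pairs of the genes, H4 on the left and 42MGBA on the right. The solid line is the regression with its mean residual added and the dashed lines lie 1.96 residual SD from it, and open circles were absent from 1 list and are drawn at its lowest strength. On the right, 11 pairs of IL6 lie above the upper dashed line and 1 pair of LIF below the lower, and on the left none lies outside.

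IL6 encodes interleukin 6, the inflammatory cytokine that drives STAT3. It lies on the plus strand of chromosome 7, with its main start at chr7:22766819, and 3 anchors lay within 3 kb of its annotated starts. Starts of IL6-AS1, an antisense RNA, and of STEAP1B also lay within 3 kb of 2 of these anchors, so that their loops cannot be assigned to IL6 alone. Its far anchors fell into 2 regions. The upstream region, chr7:22579972-22696050 with 57 pairs, lies in STEAP1B and holds starts of the antisense gene STEAP1B-AS1 and of STEAP1B itself. The downstream region, chr7:23037780-23135527 with 41 pairs, lies at the start of HYCC1, which encodes hyccin, and in the sequence beyond it where no gene is annotated.

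The upstream loop was strong in all 4 lines. Between the anchor holding the IL6 start, chr7:22763030-22767930, and chr7:22599487-22604450, which holds the plus-strand CTCF core, the strength was 12.4 in H4 and 13.4 in H4 88-1, and 16.0 in 42MGBA and 17.0 in 42MGBA 53-1. Of the 300000 listed pairs, 98.5% were weaker than this one in H4 and 99.8% in 42MGBA 53-1. Neither isogenic comparison called it, with z-scores of 0.300 and 1.54. The pair of the 2 anchors that hold the convergent CTCF cores, chr7:22599487-22604450 and chr7:22767931-22772766, reached 12.3 in H4 and 12.8 in H4 88-1, and 16.7 in 42MGBA and 16.4 in 42MGBA 53-1. The lines of a pair thus lay close together at the loop summit. The pair of the convergent cores differed 1.04-fold between H4 88-1 and H4 and 1.01-fold between 42MGBA and 42MGBA 53-1. At the anchor holding the IL6 start, H4 88-1 was 1.08 times as strong as H4 and 42MGBA 53-1 was 1.06 times as strong as 42MGBA. The systems lay farther apart.

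The called differences lay on the side of the summit that faces IL6. At chr7:22619104-22623905, 144 kb from the IL6 anchor and in an intron of STEAP1B, the pair was below the list in H4 and had 6.49 in H4 88-1, and it had 6.70 in 42MGBA and 11.2 in 42MGBA 53-1. This pair had the largest absolute z-score of the IL6 pairs in the 42MGBA comparison, 3.18, at 1.68-fold higher strength in 42MGBA 53-1. In the H4 comparison its z-score was 1.21, below the cutoff, with at least 1.57-fold higher strength in H4 88-1. All 11 stronger pairs had far anchors between chr7:22604451 and chr7:22633696. Of these, 6 were at the anchor holding the IL6 start, 3 at the next anchor toward the gene body and 2 at the anchor before, and 42MGBA 53-1 was 1.17 to 1.68 times as strong as 42MGBA. Farther out, at chr7:22594471-22599486, the pair with the anchor holding the IL6 start had 11.7 in H4 and 13.4 in H4 88-1, and 12.7 in 42MGBA and 14.1 in 42MGBA 53-1, and it was not called. At the anchor holding the IL6 start, the corrected lines were thus higher on both flanks of the summit, with calls on the flank toward IL6 alone. At the next anchor, chr7:22767931-22772766, the outer flank was mixed. There 42MGBA had 10.2 and 42MGBA 53-1 had 9.82 at chr7:22589485-22594470, but 13.5 and 13.7 at chr7:22594471-22599486.

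The listed loops also reached closer to IL6 in the corrected lines. The shortest listed upstream pair spanned 149 kb in H4 and 134 kb in H4 88-1, and 129 kb in 42MGBA and 71.8 kb in 42MGBA 53-1, and counting only strengths of 4.49 or more left these distances as they were. The lists as a whole also held shorter pairs in the corrected lines, with a median size of 348 kb in H4 and 312 kb in H4 88-1, and of 307 kb in 42MGBA and 257 kb in 42MGBA 53-1, and the part of this shift in the IL6 values was tested only for the calls, of which 9 were made in the 42MGBA comparison when pairs were ranked within bins of loop size. Upstream pairs numbered 22, 31, 33 and 57 in these lines. Over the upstream pairs listed in both lines, the median log2 ratio of the corrected to the mutant line was 0.14 in H4, with 19 of 22 pairs higher in H4 88-1, and 0.31 in 42MGBA, with 29 of 33 higher in 42MGBA 53-1. Over all pairs of chromosome 7 the medians were -0.02 and -0.07, and with these subtracted the upstream medians were 0.16 and 0.38.

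The downstream pairs listed in both lines of a pair went the other way. All listed downstream pairs numbered 29 in H4 and 18 in H4 88-1, and 28 in 42MGBA and 30 in 42MGBA 53-1. The pair of the IL6 start anchor with chr7:23091760-23096612, 329 kb away, had 10.8 in H4 and 10.7 in H4 88-1, and 10.3 in 42MGBA and 8.15 in 42MGBA 53-1. Of the downstream pairs listed in both lines, all 18 were lower in H4 88-1 than in H4, with a median log2 ratio of -0.23, and 21 of 22 were lower in 42MGBA 53-1 than in 42MGBA, with a median of -0.22. With the chromosome 7 medians subtracted these were -0.21 and -0.15. None of these pairs was called. The lowest z-score was -1.14 in the H4 comparison, at chr7:23110934-23115910, where the strength was 6.88 in H4 and 5.34 in H4 88-1, and -0.78 in the 42MGBA comparison. The highest in the 42MGBA comparison was 1.03, for chr7:22767931-22772766 with chr7:23052508-23057417. That pair had 5.85 in 42MGBA 53-1 and was below the list in 42MGBA, so 42MGBA 53-1 was not lower across the whole region. The regression gave a negative z-score to all 20 merged downstream pairs in H4 and to 12 of 15 in 42MGBA, and a positive z-score to 16 of 19 merged upstream pairs in H4 and to all 34 in 42MGBA. Its slope in 42MGBA was 0.897, so a positive z-score there did not always mean a higher strength. The pair of the convergent cores, with 16.7 in 42MGBA and 16.4 in 42MGBA 53-1, had a z-score of 0.813.

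**Figure D3:**
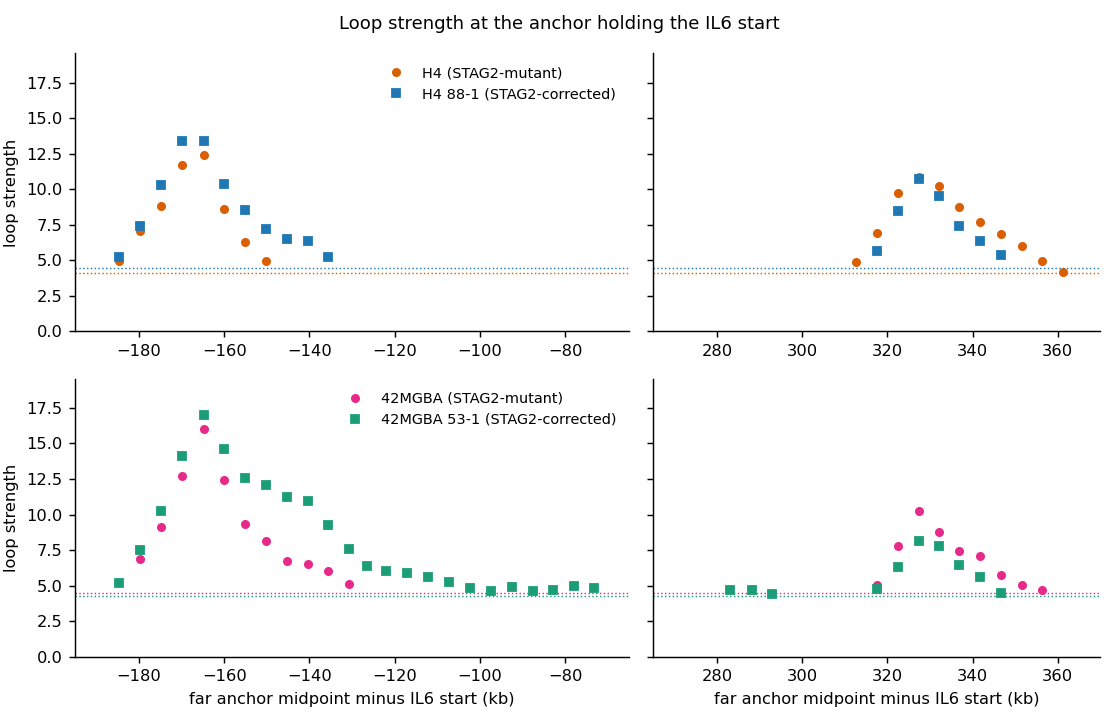
Loop strength (vertical axis) between the anchor holding the IL6 start and each far anchor, plotted by distance of the far anchor's midpoint from the start in kb (horizontal axis, negative is upstream), for the H4 pair above and the 42MGBA pair below. Dotted lines mark the lowest strength of each list. On the flank of the upstream peak that faces IL6 the corrected lines lie above the mutant lines, with 11.2 against 6.70 at the largest z-score, and at the downstream peak the mutant lines lie at or above them, with 10.3 in 42MGBA against 8.15 in 42MGBA 53-1.

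The position along the IL6 locus was examined at the far anchor chr7:22619104-22623905. In 42MGBA 53-1 its strength was 11.2 with the anchor holding the IL6 start, 10.3 with the next anchor, chr7:22767931-22772766, and 7.91 with the one before, chr7:22758029-22763029. It was 6.48 at chr7:22772767-22777329 and 5.58 at chr7:22753237-22758028, and both were below the list in the other 3 lines. The strength thus peaked at the anchors of the IL6 start. Between chr7:22579972 and chr7:23135527, counting pairs at any anchor, 25 of 307 merged pairs were stronger in 42MGBA 53-1 and 2 weaker, and 14 of the 25 were outside the IL6 anchors. In the H4 comparison 1 of 172 merged pairs in this interval was stronger in H4 88-1 and 10 were weaker, none of them at the IL6 anchors. Over all merged pairs, 1.61% were stronger and 2.45% weaker in the 42MGBA comparison, and 1.94% and 2.17% in the H4 comparison. The pairs of this interval are neighbours in 1 locus, many with shared anchors, so that their calls are not independent.

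Between the systems, none of the 53 merged pairs of the genes was called between the mutant lines, where 2.11% of all 149005 merged pairs were stronger in 42MGBA than in H4 and 1.93% weaker. Between the corrected lines, 9 of 70 merged pairs were stronger in 42MGBA 53-1 than in H4 88-1 and none was weaker, whereas 1.92% of all 151046 merged pairs were stronger and 2.09% weaker. All 9 belonged to the upstream loop of IL6, with far anchors between chr7:22599487 and chr7:22628837, z-scores from 1.97 to 2.16 and 1.27 to 1.84 times the strength in H4 88-1. When log2 ratios were ranked instead, no pair was called. The comparisons share lists with the isogenic comparisons and are not independent of them.

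LIF encodes leukemia inhibitory factor, a cytokine of the IL6 family. It lies on the minus strand of chromosome 22 with its start at chr22:30642748, and starts of the antisense RNAs LIF-AS1 and LIF-AS2 lie near its anchors as well. Its far anchors all lay toward lower coordinates, which is downstream of the gene's start. The distant region, chr22:30486517-30539847, lies in HORMAD2, a gene of meiotic chromosome pairing, and the nearer region, chr22:30568655-30637302, runs from the end of HORMAD2 to the LIF gene itself.

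At the distant region 42MGBA stood apart. The pair of chr22:30642020-30646715, which holds the LIF start, with chr22:30501268-30506021 in a HORMAD2 intron had 6.63 in H4 and 7.53 in H4 88-1, and 11.3 in 42MGBA and 6.89 in 42MGBA 53-1. Only 42MGBA was above 8. It was 1.65-fold weaker in 42MGBA 53-1 than in 42MGBA, with a z-score of -2.19, the only pair of the 10 genes called weaker. The call was lost with an intercept in the regression, with the log2 ratio and within chromosome 22. In H4 its z-score was 0.309, in the other direction. All 9 distant pairs listed in both 42MGBA lines were lower in 42MGBA 53-1, with a median log2 ratio of -0.44, and -0.28 after subtracting the median of chromosome 22. In the H4 pair 5 of 8 were higher in H4 88-1, with a median of 0.15 that became -0.06 after the same subtraction.

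The distant loop was stronger beyond LIF than at its start. The same far anchor had 9.07 in H4 and 12.5 in H4 88-1, and 15.3 in 42MGBA and 11.4 in 42MGBA 53-1 with chr22:30651729-30656679, which lies upstream of the gene and is not a LIF anchor by the rule. The anchor holding the LIF start carried a plus-strand CTCF core in an intron of LIF, at chr22:30642184-30642194, pointing away from the far anchors. No core was found in chr22:30501268-30506021.

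The nearer LIF region differed in the H4 pair. With chr22:30593352-30598050, 48.7 kb from the anchor of the start and in an intron of an unnamed long noncoding RNA gene, the strength was 4.95 in H4 and 7.33 in H4 88-1, and 4.94 in 42MGBA and 4.95 in 42MGBA 53-1. H4 88-1 alone stood above the others, at 1.48-fold over H4, and its z-score of 1.22 was the largest of all the genes in the H4 comparison but below the cutoff. Of 19 pairs of this region listed in both H4 lines, 14 were higher in H4 88-1, with a median log2 ratio of 0.18 that became -0.03 after subtracting the median of chromosome 22, 0.21. In the 42MGBA pair the region had 6 pairs in 42MGBA and 17 in 42MGBA 53-1, and over the 6 listed in both the median was 0.04. The 8 shortest LIF pairs, 4.86 to 24.6 kb in size, were all listed in H4 and 7 of them in H4 88-1, whereas none was listed in 42MGBA and 1, at 4.40, in 42MGBA 53-1.

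**Figure D4:**
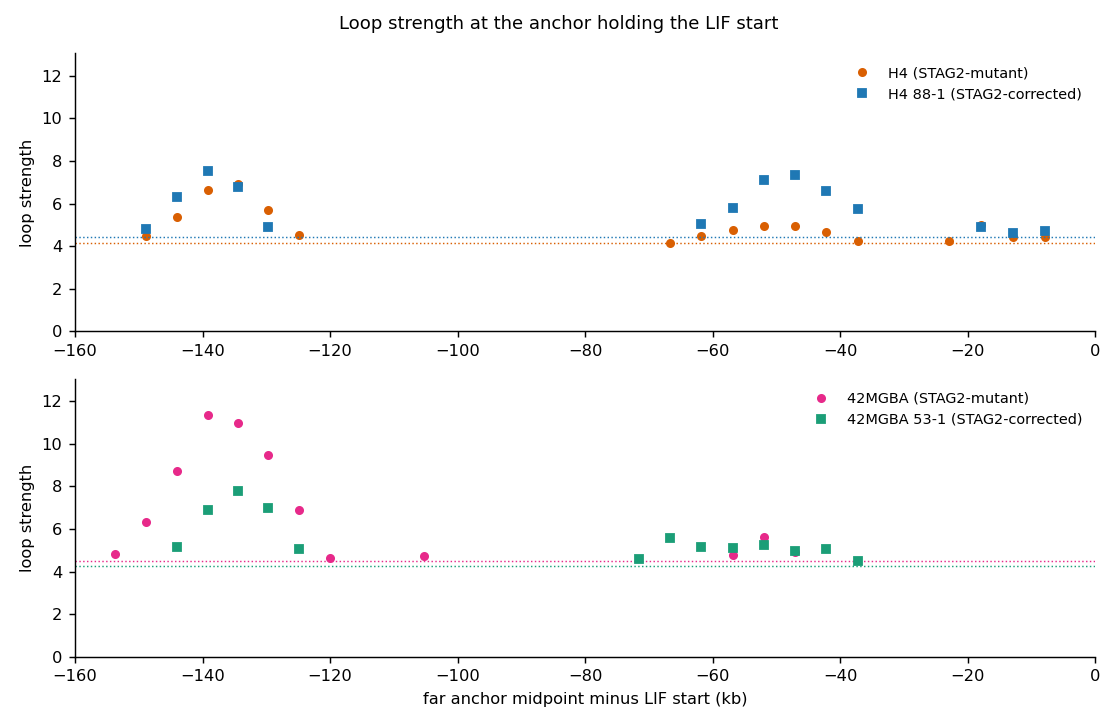
Loop strength (vertical axis) between the anchor holding the LIF start and each far anchor, plotted by distance of the far anchor's midpoint from the start in kb toward lower coordinates (horizontal axis), for the H4 pair above and the 42MGBA pair below. Dotted lines mark the lowest strength of each list. The distant peak reaches 11.3 in 42MGBA and 6.63 to 7.53 in the other lines at the called pair, and the nearer peak reaches 7.33 in H4 88-1 and at most 4.95 in the others at the far anchor named for it.

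CXCL8, CXCL1, CXCL3 and CXCL2, in this order along chromosome 4, encode chemokines that attract neutrophils, CXCL8 being interleukin 8. CXCL8 and CXCL1 lie on the plus strand, with starts at chr4:74606286 and chr4:74735110, and CXCL3 and CXCL2 on the minus strand, with starts at chr4:74904406 and chr4:74964912. An anchor that lies before CXCL8 and holds no annotated gene, chr4:74526051-74530929, was paired with all 4 genes, but not in the same lines. In H4 and H4 88-1 it was paired with CXCL1, CXCL2 and CXCL3. In 42MGBA it was paired with none of the 4, and in 42MGBA 53-1 with CXCL8 and CXCL1. The CXCL1 pairs of H4, at 4.16, and of 42MGBA 53-1, at 4.29, lay just above the ends of their lists. Both were below 4.49, where the 42MGBA list ended, so the lists do not tell whether 42MGBA differed at CXCL1. The next 2 anchors, chr4:74530930-74535859 and chr4:74535860-74540854, each held a minus-strand CTCF core, pointing away from the 4 genes, and the 29 bases printed here were identical in both.
CTCF core at chr4:74531844-74531872 and chr4:74537256-74537284, minus strand: cagacagggCCACTAGAGGGctccttggt

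CXCL2 gave the strongest of these long loops. Between chr4:74964471-74969406, which holds its start, and chr4:74526051-74530929, 438 kb away, the strength was 5.19 in H4 and 6.68 in H4 88-1, and both 42MGBA lines were below their lists. With the adjacent chr4:74521258-74526050 it was 4.34 in H4 and 6.42 in H4 88-1, the largest z-score of the gene, 1.05. All 5 pairs of CXCL2 listed in both H4 lines were higher in H4 88-1, with a median log2 ratio of 0.30, and 0.23 after subtracting the median of chromosome 4. A farther loop of CXCL2 to RASSF6, a gene of the Ras association domain family, had 3 pairs at 4.16 to 4.60 in H4 alone, of which 1 was above 4.49, the highest of the list ends.

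The loops of CXCL3 and CXCL1 were weaker than that of CXCL2. From chr4:74900871-74905760, which holds the CXCL3 start, to chr4:74526051-74530929 the strength was 4.83 in H4 and 5.58 in H4 88-1, and the pair was below both 42MGBA lists. The strongest CXCL3 pair, at the neighbouring anchor chr4:74905761-74910677 and the same far anchor, had 5.73 in H4 88-1 and was below the other lists. In 42MGBA 53-1, CXCL3 was paired instead with an intron of MTHFD2L, which encodes a mitochondrial folate enzyme, at 4.43 and 4.67. CXCL1 had a pair with chr4:74526051-74530929 at 4.16 in H4 and 4.76 in H4 88-1, and a second from its next anchor at 4.29 in 42MGBA 53-1. None of these pairs was strong enough to be merged.

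Of the 10 genes, CXCL8 differed most in the number of listed pairs, with 9 in 42MGBA and 44 in 42MGBA 53-1, against 6 in H4 and 5 in H4 88-1. At or above 4.49 it had 9 in 42MGBA and 40 in 42MGBA 53-1. Its strongest pair joined chr4:74598619-74603479 and chr4:74785030-74790041, a stretch with no annotated gene 186 kb away, at 4.53 in H4 and 5.45 in H4 88-1, and 5.79 in 42MGBA and 7.94 in 42MGBA 53-1. The corrected line was the higher in each pair, 1.20-fold in H4 and 1.37-fold in 42MGBA, and the z-score in 42MGBA was 1.62, below the cutoff. With the anchor holding the CXCL8 start, chr4:74603480-74608403, the same far anchor was below the list in H4 and had 4.98 in H4 88-1, 5.26 in 42MGBA and 7.26 in 42MGBA 53-1. This far anchor was also paired with chr4:74550801-74555666, which is not a CXCL8 anchor by the rule. That pair had 5.91 in H4 and 6.56 in H4 88-1, and 5.16 in 42MGBA and 6.86 in 42MGBA 53-1. In both H4 lines it was stronger than the CXCL8 pairs of this far anchor. The higher strength in 42MGBA 53-1 was thus not confined to CXCL8. All 7 CXCL8 pairs listed in both 42MGBA lines were higher in 42MGBA 53-1, with a median log2 ratio of 0.36, and 0.45 after subtracting the median of chromosome 4.

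The upstream region of CXCL8, chr4:74521258-74560377, was listed in 42MGBA 53-1 alone, with 18 pairs at 4.41 to 6.56. The strongest, with the shared anchor chr4:74526051-74530929, had a z-score of 1.48. Another region of 5 pairs, at the start of PF4V1, a platelet chemokine gene, had 4.31 to 5.20 in 42MGBA 53-1 and a single pair, at 4.66, in H4 88-1. Loops of CXCL8 to MTHFD2L were listed in the mutant lines alone, with 4 pairs at 4.21 to 5.04 in its intron in H4, 2 of them above 4.49, and 2 pairs at 4.58 and 4.83 near its start in 42MGBA. No CXCL8 pair was merged in the H4 comparison, and none of the 8 merged in 42MGBA was called.

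**Figure D5:**
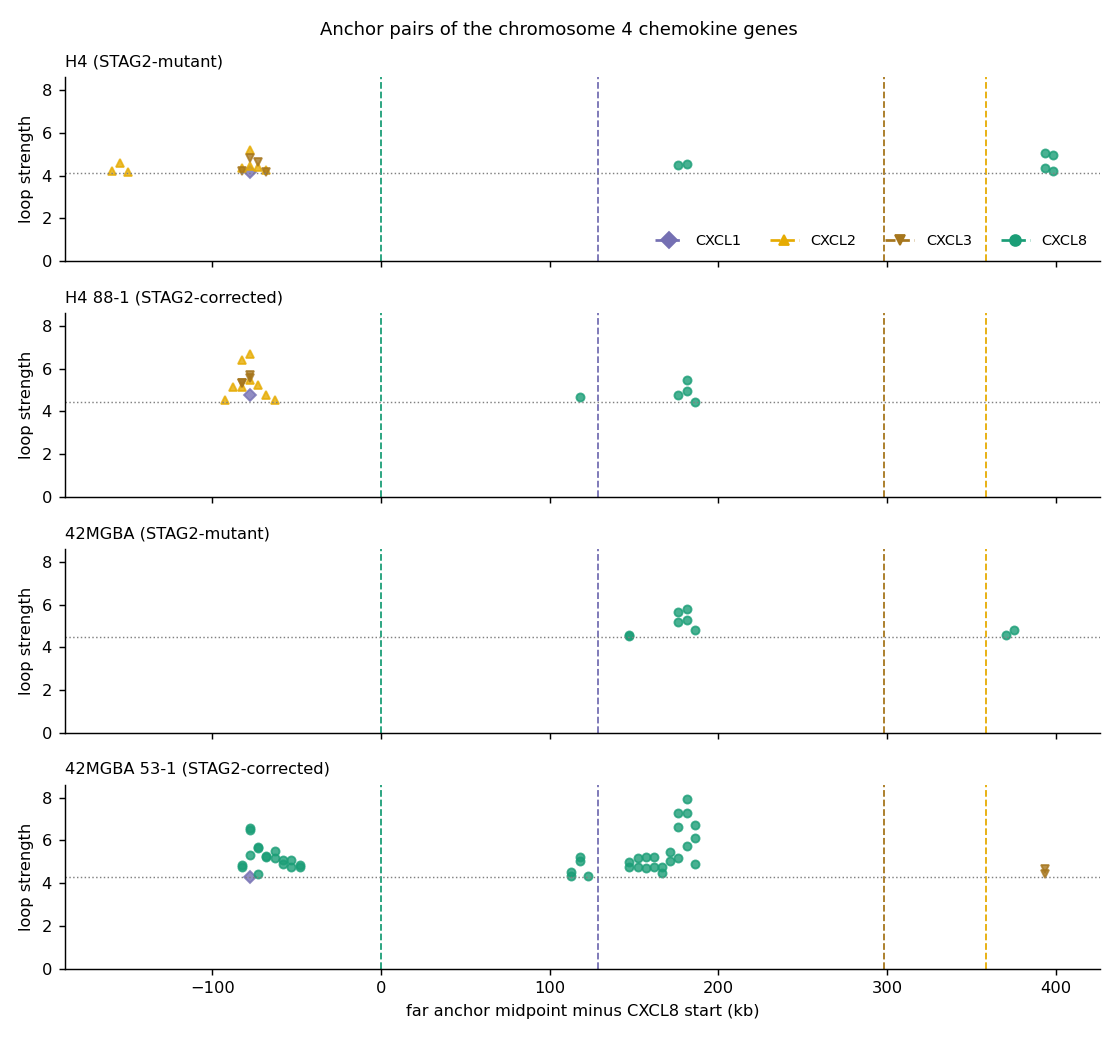
Loop strength (vertical axis) of the listed anchor pairs of CXCL1, CXCL2, CXCL3 and CXCL8 in each line, plotted by distance of the far anchor's midpoint from the CXCL8 start in kb (horizontal axis). Dashed lines mark the gene starts and dotted lines the lowest strength of each list. The far anchor before CXCL8 carries pairs of CXCL1, CXCL2 and CXCL3 in both H4 lines, none in 42MGBA, and pairs of CXCL8 and CXCL1 in 42MGBA 53-1, where the CXCL8 pairs reach 6.56. The CXCL1 pair in 42MGBA 53-1, at 4.29, is below the lowest strength of the 42MGBA list.

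CSF1 encodes the growth factor of macrophages and lies on the plus strand of chromosome 1 with its start at chr1:110453471. All 12 of its pairs reached chr1:110319320-110337650, a stretch with no annotated gene. They numbered 2 in H4 and 0 in H4 88-1, and 5 in 42MGBA and 12 in 42MGBA 53-1. The strongest, between chr1:110453131-110458114 and chr1:110324125-110328159, had 4.60 in 42MGBA and 5.46 in 42MGBA 53-1 and was below both H4 lists. All 5 pairs listed in both 42MGBA lines were higher in 42MGBA 53-1, with a median log2 ratio of 0.17. No CSF1 pair was strong enough to be merged. Of the 4 far anchors, 2 held a plus-strand CTCF core, pointing toward CSF1, and no core was found in the 3 anchors at the gene. The nearer to CSF1 is shown as an example of a core at the far end of a weak loop.
CTCF core at chr1:110333800-110333828, plus strand: ggaccaacgCCACCAGGTGGgacagaggc

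IL1B, CCL2 and IL11 had no listed pair, which says that no pair at their starts reached the lowest strength of a list. To place the genes in their pathway, 61 further genes of cytokine signalling were read in the same way, comprising 31 other cytokines and chemokines, 16 receptors and 14 genes of NF-kB and STAT signalling. Of these, 40 had a listed pair. In the H4 comparison 22 genes had 236 merged pairs, of which none was called in either direction, against 1.94% stronger and 2.17% weaker among all merged pairs. In the 42MGBA comparison 24 genes had 360 merged pairs, of which 18 at 5 genes were stronger in 42MGBA 53-1 and none was weaker, against the 1.61% and 2.45% of all merged pairs.

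These 5 genes were named after their values were seen. The receptors gave 11 of the 18 stronger pairs. There were 6 of 24 merged pairs at OSMR, which encodes the oncostatin M receptor, and 3 of 38 at IL1R1, the receptor of interleukin 1. IL6ST, which encodes gp130, gave 2 of 84, near the 1.61% stronger among all merged pairs. NFKBIA, which encodes the inhibitor that holds NF-kB in the cytoplasm, gave 6 of 46, and CCL8, a monocyte chemokine near CCL2, gave 1 of 4. Listed pairs of OSMR numbered 8 in 42MGBA and 79 in 42MGBA 53-1, and those of IL1R1 numbered 42 and 112. At IL6ST they numbered 134 and 157, and at NFKBIA 80 and 78. In the H4 pair the same genes had 16 and 25 pairs at OSMR, 5 and 11 at IL1R1, 107 and 125 at IL6ST and 59 and 58 at NFKBIA, in H4 and H4 88-1 respectively. Among the other cytokines and chemokines, CXCL12 had the most pairs, 35 in H4 and 40 in H4 88-1, and 89 in 42MGBA and 73 in 42MGBA 53-1, and none was called in either isogenic pair.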

How the data were processed

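Hi-C had been performed on 2 samples of each line with the Arima Hi-C+ kit. Per the study's methods and the labels, read trimming by the authors was followed by bowtie alignment to hg19 and removal of duplicates, and they then assigned read pairs to anchors of 5 kb, corrected biases with HiCorr and enhanced the maps with LoopEnhance of DeepLoop. The deposited value is a signal, the loop strength, for 300000 anchor pairs per line, and enhancement borrows signal from neighbouring pairs. Read counts per pair are not given, so that no counting interval was computed.

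Starts and genes were taken from GENCODE release 44 on GRCh37. Following the study's methods, the 100000 strongest pairs of both lists were merged, and pairs were called where the z-score of the residual passed 1.96, the two-sided level of 0.05. A regression through the origin was used, since its form is not given in the sources used here, and absent pairs took the lowest strength of the list. Far anchors at most 10 kb apart were joined into regions. Each gene is described by its strongest pair, its merged pair of largest absolute z-score in each isogenic pair and any pair past the cutoff in both, and other pathway genes were to be named when past the cutoff in both. Genes, pathway lists and motifs were chosen with earlier results of these data known. The 12 RNA-seq samples were not analysed here. Calculations used scipy 1.17.1, pandas 2.3.3 and numpy 2.4.6 in Python 3.11.15, with matplotlib 3.10.9 for plots.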

Additional observations from a re-analysis of the deposited data

Results flagged for a closer look

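The pair of the LIF start anchor with chr22:30501268-30506021 moved in opposite directions in the isogenic pairs, with a log2 ratio of the corrected to the mutant line of 0.18 in H4 and -0.72 in 42MGBA. Over all pairs of chromosome 22 the median was 0.21 in H4 and -0.16 in 42MGBA, so the H4 value lay slightly below that of its chromosome. With these medians subtracted, the distant LIF region had -0.06 in H4 and -0.28 in 42MGBA, both negative. The difference between the systems was not tested, since each line had 1 list.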

How the results depend on the processing

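No paired analysis was possible because the replicates of each line were pooled into 1 list, and for the same reason no replicate could be left out. The absence of calls in the H4 comparison held under all 9 alternatives in both directions. In the 42MGBA comparison, the 11 stronger pairs became 7 with the log2 ratio, 26 with all 300000 pairs merged, 7 within each chromosome and 6 when an anchor had to overlap a start. The 1 weaker pair became 0 with an intercept, with the log2 ratio and within each chromosome, 4 with all pairs merged, 3 within bins of loop size and 3 with starts within 10 kb. Between the mutant lines the 0 stronger pairs became 3 with an intercept and 4 with all pairs merged. Between the corrected lines the 9 became 14 with an intercept, 0 with the log2 ratio and 17 with all pairs merged. The cause was not tested. Subtracting the chromosome median turned the median log2 ratio of all IL6 pairs in H4 from -0.01 to 0.0072 and that of LIF in H4 from 0.18 to -0.032. Of the other 37 alternative counts of calls, all were within 1.5 times the count reported. Strengths below the end of a list are unknown, so that a gene without a listed pair may still form loops.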
